A study of Sorghum propinquum with 2 samples.

Results

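Sucrose transporters of the SUT family were examined in *Sorghum propinquum*, a wild relative of grain sorghum whose underground stems, the rhizomes, let it spread. The family was taken as 6 locus IDs, SUT1 (Sb01g045720), SUT2 (Sb04g038030), SUT3 (Sb01g022430), SUT4 (Sb08g023310), SUT5 (Sb04g023860) and SUT6 (Sb07g028120). They were chosen by family membership and not by their values, although earlier results of these data were known. Of the 6 IDs, 5 were found among the 24371 listed loci and are described below. SUT6 was not among the listed loci used here and was not analysed. All listed loci had reads in at least 1 library, so loci without reads may have been left out of the list. Whether SUT6 had reads is not known. RNA sequencing was done on rhizomes and on shoots of 1 vegetative clone of an unnamed accession, grown in a greenhouse and sampled while actively tillering, the stage at which side shoots form. Each organ is represented by 1 library: values carry no error between samples, no p-value is given, and variation between plants is unknown. The labels do not say which parts of a shoot (leaf blade, sheath, stem) were collected, nor how many plants were pooled.

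SUT proteins are membrane carriers that move sucrose together with a proton. In source leaves they load sucrose into the phloem, the tissue that carries sugar through the plant, and elsewhere they retrieve sucrose that leaks out or help sink organs take it up. A green shoot makes sugar by photosynthesis but also holds growing, sugar-importing parts, while a rhizome imports and stores sugar. The design allows one question on this family, which is how the level and the make-up of SUT transcripts in the rhizome compare with those in the shoot.

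Levels are given as reads and as RPKM, which is reads per 1000 bases of the listed gene length and per 1000000 reads in genes. The rhizome library had 16862624 reads in genes and the shoot library 17153968. The 95% intervals printed with them are exact and account for the counting of reads alone; no molecular identifiers are mentioned in the labels, and copies of 1 molecule may have been counted more than once. The tables give no gene positions, products or sequences. By the digits in their IDs, SUT1 and SUT3 lie on chromosome 1, SUT2 and SUT5 on chromosome 4 and SUT4 on chromosome 8 of the genome the IDs describe, whose build is not given in the sources used here. The listed lengths of the 5 loci are 5075 bases for SUT1, 4039 for SUT2, 3281 for SUT3, 4323 for SUT4 and 2779 for SUT5, against a median of 2369 bases over all listed loci.

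Each of the 4 SUT genes that reached 1 RPKM had a lower level in the rhizome library than in the shoot library, and the gap was widest for SUT1. Together the 5 listed genes had 2963 reads in the rhizome library and 6095 reads in the shoot library, or 176 and 355 reads per 1000000. The family total was thus 2.02-fold lower in the rhizome (interval 1.93 to 2.11). Summed over the genes per length, the family stood at 39.5 RPKM in the rhizome and 78.3 RPKM in the shoot. In a bulk sample, fewer cells that express a gene and less RNA of it per cell cannot be told apart.

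**Figure D1:**
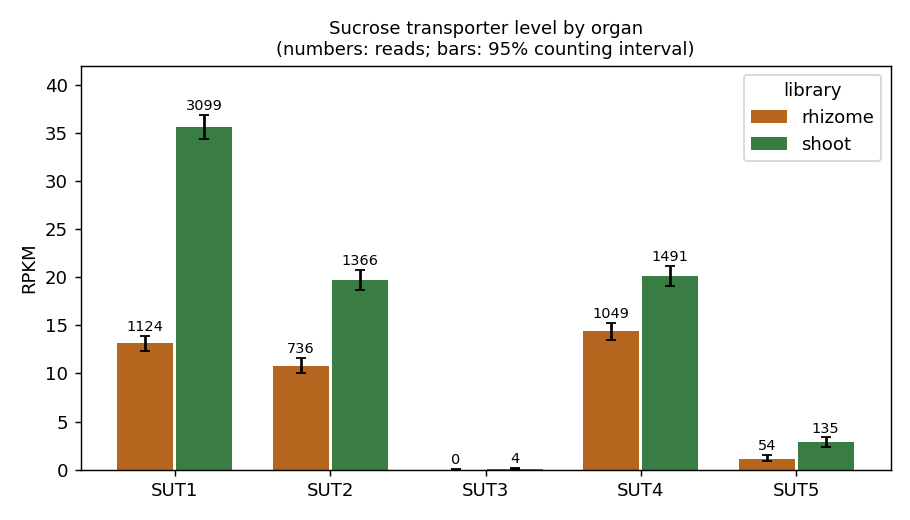
Level of each SUT gene in RPKM, with the rhizome library (brown) left of the shoot library (green); error bars are exact 95% Poisson intervals of the read counts and the numbers are reads. SUT1 had 13.1 RPKM in the rhizome and 35.6 RPKM in the shoot, and SUT3 had at most 4 reads in either library.

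SUT1, whose maize counterpart loads sucrose into the leaf phloem, had the most reads of the family in both libraries. It had 1124 reads (13.1 RPKM) in the rhizome library, against 3099 reads (35.6 RPKM) in the shoot library. This was 2.71-fold lower in the rhizome (interval 2.53 to 2.90). SUT1 alone made up 57.8% of the family's gap of 38.8 RPKM between the libraries. It was among the more abundant genes of the shoot, at the 86.7th percentile of the 18233 genes with 1 RPKM or more there, and at the 66.0th percentile of the 17801 such genes in the rhizome.

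SUT2 was intermediate in its fold difference. It had 736 reads (10.8 RPKM) in the rhizome library and 1366 reads (19.7 RPKM) in the shoot library. Its level was 1.82-fold lower in the rhizome (interval 1.67 to 1.998). It lay at the 60.7th percentile of detected genes in the rhizome and at the 76.1st percentile in the shoot.

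SUT4 had the smallest fold difference of the 4 genes. It had 1049 reads (14.4 RPKM) in the rhizome library and 1491 reads (20.1 RPKM) in the shoot library, which was 1.40-fold lower in the rhizome (interval 1.29 to 1.51). SUT4 stood at the 68.4th percentile of detected genes in the rhizome and at the 76.6th in the shoot. Its counting interval did not overlap that of SUT1, SUT2 or SUT5. These intervals hold counting error alone, and how often those of other genes lie apart was not computed.

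SUT5, whose rice counterpart transports sucrose when expressed in frog oocytes, was the least abundant gene above 1 RPKM. It had 54 reads (1.15 RPKM) in the rhizome library and 135 reads (2.83 RPKM) in the shoot library, or 2.46-fold lower in the rhizome. The counting interval, 1.78 to 3.44, was the widest of the 4. The rhizome level was close to the detection level of 1 RPKM, with an interval of 0.866 to 1.504 RPKM. It was at the 2.27th percentile of detected genes in the rhizome and at the 22.1st percentile in the shoot.

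SUT3 was near the limit of what this depth can show. It had 0 reads in the rhizome library and 4 reads (0.0711 RPKM) in the shoot library. By the common one-sided limit, a count of 0 allows up to 3 reads, here 0.0542 RPKM, and the exact 95% Poisson interval, which is two-sided, reaches 0.0667 RPKM. The counting interval of the ratio of rhizome to shoot ran from 0 to 1.54 and so included 1, and a difference between the organs was not detectable.

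**Figure D2:**
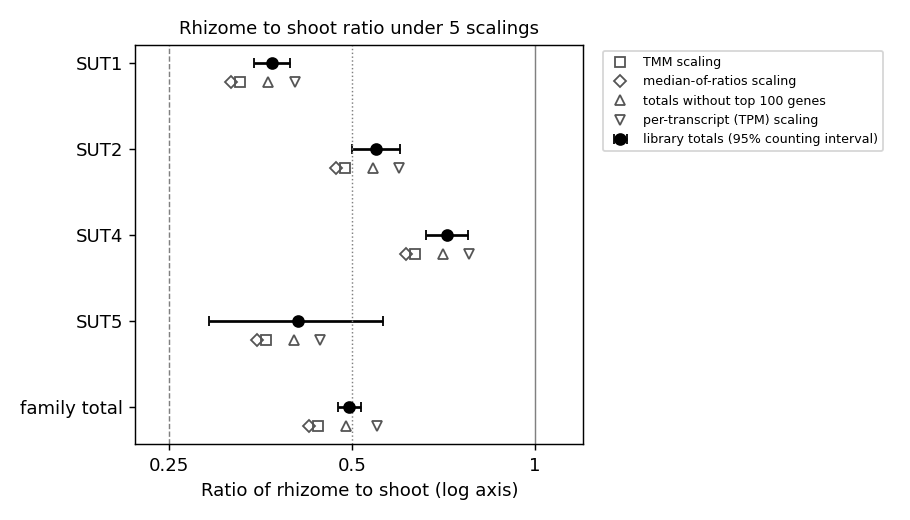
Ratio of rhizome to shoot on a log axis for the 4 SUT genes above 1 RPKM and for the family total. Filled points with bars use the library totals and exact 95% counting intervals, open symbols below them use 4 other scalings, and the vertical lines mark ratios of 0.25, 0.5 and 1. The per-transcript point of the family total uses summed RPKM. All points lie between 0.25 and 1, with SUT1 at 0.369 and SUT4 at 0.716 under the library totals.

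The direction of the SUT genes can be read beside that of other genes. Among the 16710 genes that reached 1 RPKM in each library, 38.4% were lower in the rhizome under library totals. That share depended on the scaling and was 47.3% under TMM, 50% by construction under median-of-ratios and 32.8% under per-transcript scaling. In the deposited values the counting interval was wholly below a ratio of 1 for 28.3% of these genes and wholly above it for 48.7%. All 4 SUT genes of that set had an interval wholly below 1. On the log2 scale the ratio of rhizome to shoot of these SUT genes had a median of -1.08, with values from -1.44 to -0.48, whereas the median over the 16710 genes was 0.22, with quartiles of -0.35 and 0.63. With 4 genes of 1 family and 1 library per organ, these counts describe this pair of libraries.

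Of the 4 SUT genes above 1 RPKM, none differed by 4-fold or more. The size rule asked for a difference of 4-fold or more and for 5 RPKM in the library where the gene was higher. It was met by 0 SUT genes, SUT3 being far below its minimum level, while 9.02% of the 12826 genes that reached 5 RPKM in a library were at least 4-fold lower in the rhizome and 1.80% at least 4-fold higher. At 2-fold and 5 RPKM, SUT1 alone passed, beside 16.8% of all such genes lower in the rhizome and 11.0% higher. SUT5 was past 2-fold but under 5 RPKM. With the minimum at 1 RPKM, SUT1 and SUT5 passed at 2-fold, beside 17.1% of the 19324 genes that reached this level in a library and were lower in the rhizome, and 13.0% that were higher. SUT2 was short of 2-fold in the deposited values and past it under TMM and median-of-ratios scaling, with ratios of 0.486 and 0.470. On the log2(RPKM + 1) scale, which understates differences of low genes, SUT1 lay at the 9.40th percentile of these 19324 genes. On the same scale SUT5 lay at the 16.3rd, SUT2 at the 16.7th and SUT4 at the 24.2nd percentile, where low percentiles mean lower in the rhizome.

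**Figure D3:**
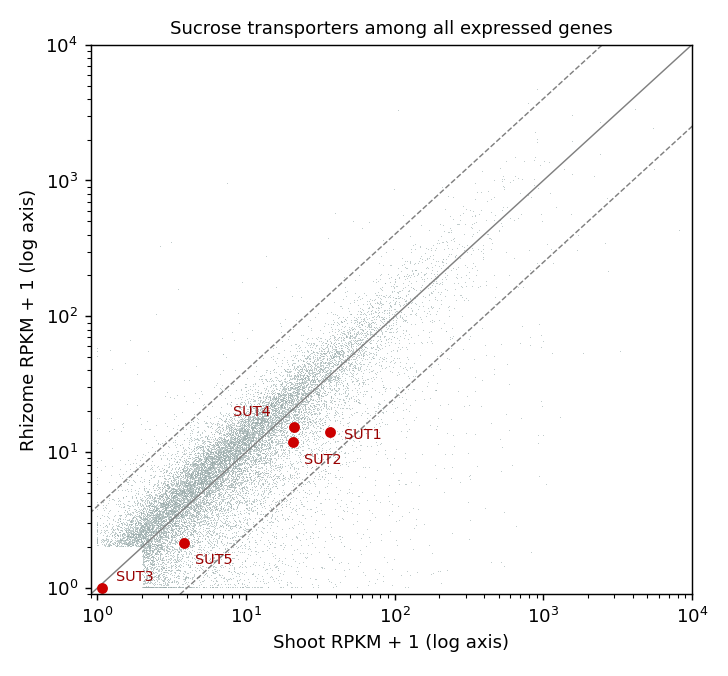
Rhizome RPKM + 1 against shoot RPKM + 1 on log axes for the 19324 genes that reached 1 RPKM in a library (grey points), with the 5 SUT genes in red. The solid line marks equal values and the dashed lines a 4-fold difference on this scale; SUT1, SUT2, SUT4 and SUT5 lie below the solid line and inside the dashed ones.

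The make-up of the family also differed between the rhizome library and the shoot library. Per length, SUT4 took 36.4% of the family's summed RPKM in the rhizome and 25.7% in the shoot. SUT1 took 33.3% in the rhizome and 45.5% in the shoot. SUT2 kept a similar share, 27.4% in the rhizome and 25.2% in the shoot. SUT5 took 2.92% in the rhizome and 3.62% in the shoot, and SUT3 took 0% and 0.0907%.

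Shares of the family's reads, which carry the counting error, gave the same directions. SUT1 had 37.9% of the family's reads in the rhizome (interval 36.2% to 39.7%) and 50.8% in the shoot (49.6% to 52.1%). SUT4 had 35.4% in the rhizome (33.7% to 37.2%) and 24.5% in the shoot (23.4% to 25.6%). The intervals of the 2 libraries did not overlap for either gene. They hold counting error alone, and how often shares within other gene sets separate in this way was not computed. For SUT2, at 24.8% in the rhizome (23.3% to 26.4%) and 22.4% in the shoot (21.4% to 23.5%), they overlapped slightly, and for SUT5, at 1.82% (1.37% to 2.37%) and 2.21% (1.86% to 2.62%), they overlapped. The 0 SUT3 reads allow a share of up to 0.101% of the family's reads in the rhizome by the limit of 3 reads, and the Clopper-Pearson interval reaches 0.124%.

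**Figure D4:**
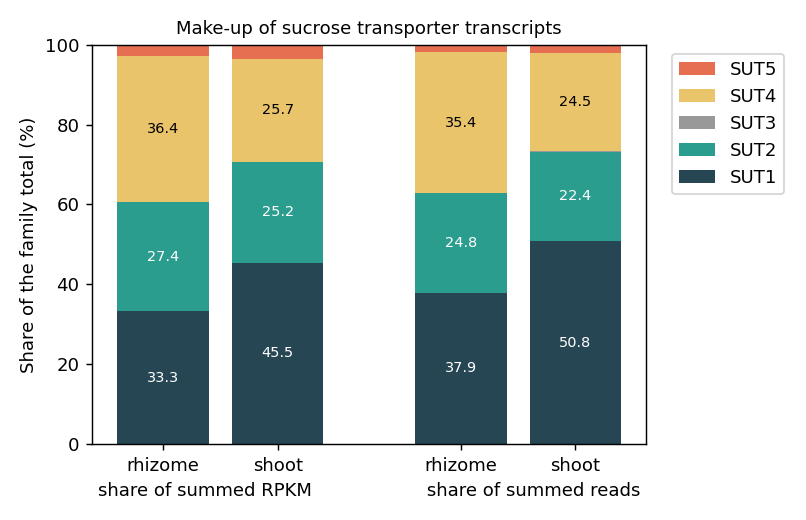
Share of each SUT gene in the family total, in percent, with the rhizome left of the shoot; the left pair of bars uses summed RPKM and the right pair summed reads. SUT1 takes 33.3% of summed RPKM in the rhizome and 45.5% in the shoot, and SUT4 takes 36.4% in the rhizome and 25.7% in the shoot.

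The order of the levels was therefore not the same in the 2 organs. In the rhizome the order per length was SUT4, SUT1, SUT2, SUT5 and SUT3. SUT4 was 1.10 times SUT1 there (interval 1.01 to 1.19), so these neighbours barely differed beyond counting error, and SUT1 was 1.22 times SUT2 (1.11 to 1.34). In the shoot the order was SUT1, SUT4, SUT2, SUT5 and SUT3. SUT1 was 1.77 times SUT4 there (1.66 to 1.88), and SUT4 and SUT2 did not differ beyond counting error, at a ratio of 1.02 (0.947 to 1.10). The first place of SUT4 in the rhizome rests on the listed lengths, since SUT1 had more reads than SUT4 there, 1.07 times as many (0.984 to 1.17).

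Ratios between members within a library do not depend on how the libraries were scaled, nor, when set against each other, on gene length. The SUT4 to SUT1 read ratio was 0.933 in the rhizome and 0.481 in the shoot, so it was 1.94 times as high in the rhizome (interval 1.74 to 2.16). The SUT2 to SUT1 ratio was 1.49 times as high in the rhizome (1.32 to 1.67). The SUT4 to SUT2 ratio was 1.31 times as high (1.16 to 1.47). Relative to SUT1 and to SUT2, SUT4 was thus higher in the rhizome library than in the shoot library.

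Against SUT5, the small counts widened the intervals. The SUT4 to SUT5 ratio was 1.76 times as high in the rhizome (1.26 to 2.48). The SUT2 to SUT5 ratio was 1.35 times as high (0.962 to 1.91) and the SUT5 to SUT1 ratio 1.10 times as high (0.783 to 1.54), and both intervals included 1. Of the 6 pairs compared, 4 had an interval that excluded 1. Each interval is for its own pair and was not widened for the number of pairs. The pair intervals hold counting error alone. How often pairs of other genes exclude 1 was not computed, so the count of 4 cannot be set against other pairs. For the ratios of single genes, intervals that excluded 1 were common. Of the 16710 genes detected in each library, 28.3% lay wholly below 1 and 48.7% wholly above it.

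**Figure D5:**
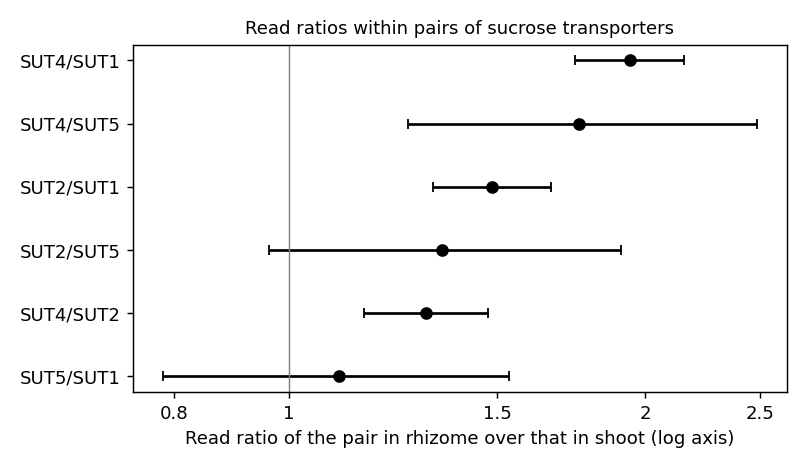
Read ratio of each of the 6 pairs of SUT genes in the rhizome divided by the same ratio in the shoot, on a log axis, with exact conditional 95% counting intervals; the vertical line marks equal ratios. SUT4/SUT1 stands highest at 1.94, and the intervals of SUT2/SUT5 and SUT5/SUT1 include 1.

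Many other genes had a similar pair of levels. Likeness was measured as the distance on the plane of log2(RPKM + 1) in the rhizome and in the shoot, over these 2 libraries. Within a distance of 0.25 there were 34 other genes around SUT1, 104 around SUT2, 159 around SUT4 and 147 around SUT5. Of the SUT genes at 1 RPKM or more, SUT1 had the smallest log2 ratio and SUT4 the largest. The gene nearest to SUT1 was Sb08g023140, with 12.9 RPKM in the rhizome and 36.4 RPKM in the shoot. The gene nearest to SUT4 was Sb08g002100, with 14.2 RPKM in the rhizome and 20.1 RPKM in the shoot. The tables do not pair these IDs with names.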

How the data were processed

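Total RNA, extracted with TRIzol and made into Illumina libraries per the labels' protocols, was sequenced from 1 rhizome and 1 shoot sample, grouped by the tissue label. The deposited counts are whole reads per locus. The deposited RPKM of the authors, recomputed from counts, listed lengths and the total of the count column, differed by less than 0.0001. The sources used here do not name an aligner, counting program, build, annotation or strand setting, or how lengths were measured, so reads shared with near-identical or overlapping genes cannot be told apart. RPKM levels between genes depend on the listed lengths, while ratios of 1 gene between libraries do not.

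With 1 library per organ no count model could be tested. For ratios scaled by library totals and for shares of reads, 95% intervals are Clopper-Pearson intervals (conditional on the sum of both counts for a ratio). Ratios between pairs have exact conditional odds ratio intervals. Detection was 1 RPKM, the size rule 4-fold with 5 RPKM, and the pseudocount 1 RPKM. The rule for named genes took all members and the gene nearest to the member with the smallest and to that with the largest log2((rhizome + 1)/(shoot + 1)). For these 2 places only members at 1 RPKM or more in either library were considered, which left out SUT3. Gene names come from the family list. The members and rules were chosen with earlier results of these data known. The 6 pathway and 3 marker lists, defined on product names, could not be filled, so 0 were described and the labelled organs were not checked against markers. The code was tested on simulated data. TMM scaling used edgeR 4.0.16 in R 4.3.3, and all else scipy 1.17.1, numpy 2.4.6, pandas 2.3.3 and matplotlib 3.10.9 in Python 3.11.15.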

Additional observations from a re-analysis of the deposited data

How the results depend on the processing

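The ratios of rhizome to shoot of SUT1, SUT2, SUT4 and SUT5 stayed below 1 in all 20 recomputed values, and 8 left the counting interval of the reported ratio. Each scaling multiplies every gene's ratio by the same constant, from 0.858 to 1.09. A pseudocount added to both sides cannot move a ratio across 1. The recomputed values thus show how far the ratios move and are not separate checks of direction. TMM scaling, which shifts every log2 ratio by -0.17, gave 0.327 for SUT1, 0.486 for SUT2, 0.635 for SUT4 and 0.439 for the family total. Median-of-ratios scaling, a shift of -0.22, gave 0.316, 0.470, 0.614 and 0.424 in the same order. Per-transcript (TPM) scaling, a shift of 0.12 added after seeing the data, gave 0.402 for SUT1 and 0.780 for SUT4. For the family total it gave 0.549, taken from the ratio of summed RPKM, 0.504. The other scalings of the family total used the ratio of summed reads. Without SUT1 the family ratio was 0.624, against 0.495 with it. As shares of reads in the rhizome and the shoot, SUT1 had 37.9% and 50.8%, SUT2 24.8% and 22.4%, and SUT5 1.82% and 2.21%, and SUT4 had 24.5% in the shoot. Among summed RPKM without SUT1, SUT2 took 41.0% and 46.1%, SUT4 54.6% and 47.1%, and SUT5 4.37% and 6.63%, so the share of SUT2 was then lower in the rhizome. At 2-fold and 5 RPKM 1 SUT gene passed, and at 2-fold and 1 RPKM (added after seeing the data) 2 did, SUT1 and SUT5. SUT3 had no ratio to recompute. Depth limits SUT3 and SUT5. No paired analysis was possible because the rhizome and the shoot have 1 library apiece, and none could be left out in turn. Alternatives for the pathway lists were not run.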

Other observations

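The listed loci next to each SUT gene in ID order, between which other loci can lie, had ratios of their own. The locus before SUT2 had 1041 reads in the rhizome and 583 in the shoot, a ratio of 1.82 (interval 1.64 to 2.01), on the other side of 1 from SUT2. The locus after SUT2 had 0 reads in the rhizome and 64 in the shoot, with an interval of the ratio of 0 to 0.0604, on the same side as SUT2. The locus before SUT5 had 93 reads in the rhizome and 125 in the shoot, a ratio of 0.757 (0.572 to 0.998), on the same side as SUT5. The locus after SUT5 had 984 reads in the rhizome and 598 in the shoot, a ratio of 1.67 (1.51 to 1.86), on the other side. The locus before SUT4 had 51 reads in the rhizome and 395 in the shoot, a ratio of 0.131 (0.0961 to 0.176), and the locus after it 8 and 12 reads, a ratio of 0.678 (0.240 to 1.80). The locus before SUT3 had 58 reads in the rhizome and 161 in the shoot, a ratio of 0.366 (0.267 to 0.498), and the locus after it had 0 and 1. The loci on either side of SUT1 had 2 and 10 reads in the rhizome and 8 and 4 in the shoot. Whether SUT genes share reads with these loci was not tested.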
